A study of Mus musculus with 36 samples.

Results

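The genes described here are 9 genes of myelin and of the oligodendrocyte, the cell that wraps axons of the central nervous system: Mbp, Mog, Mag, Mobp, Cnp, Cldn11, Opalin, Ermn and Mal. They were chosen by symbol in the deposited mRNA table, and all 9 were found among 22154 genes, as 31 of the table's 48717 transcript rows. Transcript values were summed to a level per gene, in FPKM, a fragment measure scaled by transcript length and library size. Brain of APP/PS1 mice, which carry the APP695swe and PS1-dE9 transgenes, was compared with brain of wild type mice, all on the C57BL/6 strain. There were 4 groups of 3 long RNA libraries: wild type (WT) at 6 months, APP/PS1 at 6 months, WT at 9 months and APP/PS1 at 9 months. The labels used here name neither the promoter of the transgenes nor the region of the brain, and nothing in them ties the 3 libraries of a group to separate animals. The p-values therefore measure only the spread between these libraries, which may be technical.

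Myelin is a stack of membrane that an oligodendrocyte winds around an axon and compacts until little cytoplasm is left between its layers. Different proteins hold the cytoplasmic faces together, line the edges where cytoplasm remains, seal the spiral and stand on the outermost or innermost layer. Oligodendrocytes arise from precursor cells, and the genes for these proteins are switched on together as a precursor matures, under transcription factors that include SOX10 and MYRF.

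The App gene, which the APP695swe transgene adds to, lay at 433 to 441 FPKM in WT and 970 to 1007 FPKM in APP/PS1 at 6 months, and at 444 to 453 FPKM and 973 to 1029 FPKM at 9 months, in the order the genotype labels give. The FPKM total of a library lay between 292540 and 301778, and 16757 to 17062 genes had a value. The table holds no read counts, so the depth behind these values is unknown. The protocol text in the labels names retinas as the tissue taken, while the tissue label reads brain. All 8 photoreceptor markers checked lay below 1 FPKM in every library, as did all 9 markers of the hindbrain. Markers of striatal neurons were present, and their summed level was 422.8 to 474.6 FPKM in WT at 6 months, 354.0 to 378.4 FPKM in APP/PS1 at 6 months, 341.2 to 372.6 FPKM in WT at 9 months and 353.5 to 406.0 FPKM in APP/PS1 at 9 months. Markers of the choroid plexus, the tissue that secretes cerebrospinal fluid, summed to 6.29 to 291.3 FPKM, 101.8 to 328.8 FPKM, 308.9 to 351.4 FPKM and 76.6 to 297.2 FPKM in the same order of groups. Of 7 genes of Schwann cells, which myelinate peripheral nerves, 5 stayed below 1 FPKM in every library, and Prx, a gene of peripheral myelin, peaked at 0.164 FPKM. Pmp22 lay at 7.56 to 11.3 FPKM and Egr2 at 0.62 to 2.96 FPKM.

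Promoters of 3 of the genes are shown because Cnp, Mog and Mag were among those whose levels moved together across libraries, and because they held the letters CTGGCAC or CTGGTAC, which are forms of the motif bound by MYRF. Each run is the 250 bases before an annotated start in RefSeq, build GRCm38.p6, read in the direction of the gene, with the match in capitals. Cnp lies at chr11:100574689-100574938 on the plus strand, Mag at chr7:30914923-30915172 on the minus strand (the most upstream of its 3 starts) and Mog at chr17:37023399-37023648 on the minus strand.
Cnp promoter: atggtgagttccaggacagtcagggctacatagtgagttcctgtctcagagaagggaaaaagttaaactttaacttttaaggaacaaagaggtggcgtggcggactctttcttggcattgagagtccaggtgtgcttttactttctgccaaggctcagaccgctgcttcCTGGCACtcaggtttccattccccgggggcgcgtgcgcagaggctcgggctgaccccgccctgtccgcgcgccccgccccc
Mag promoter: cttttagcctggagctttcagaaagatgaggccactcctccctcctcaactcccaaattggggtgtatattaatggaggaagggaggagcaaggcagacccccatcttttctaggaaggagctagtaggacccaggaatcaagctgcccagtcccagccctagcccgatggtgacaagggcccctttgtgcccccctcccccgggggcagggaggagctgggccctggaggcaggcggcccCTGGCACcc
Mog promoter: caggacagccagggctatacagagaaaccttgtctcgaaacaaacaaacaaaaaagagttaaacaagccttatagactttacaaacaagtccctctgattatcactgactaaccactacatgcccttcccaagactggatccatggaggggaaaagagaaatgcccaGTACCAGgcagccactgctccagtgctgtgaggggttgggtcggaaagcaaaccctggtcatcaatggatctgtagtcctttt
The match began 81 bases before the start in Cnp and 9 bases before it in Mag, and 83 bases before it in Mog, where it read on the opposite strand. Over 10 windows of 8 of the genes, searched on both strands, 3 genes held a match, and Cldn11 and Mobp, the pair with the highest r, held none. Mbp was left out of this search, so whether its promoters hold a match was not tested. Counted by window, 4 of 10 held one, 2 of them overlapping windows of Mag, beside 5.93% of all 32851 promoter windows of that length. The SOX-type letters ACAAAG occurred in windows of Cnp, Mag, Mobp and Opalin and in 16.5% of all windows, ACAATG in that of Ermn and in 10.7%, and the E-box CAGCTG in none of the 8 genes and in 13.0%. A match describes letters only, and whether a factor binds there was not tested.

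Levels per length spanned from Mbp at a mean of 204.8 FPKM over the 12 libraries down to Opalin at 3.57 FPKM. Mbp, which glues the cytoplasmic faces of the membrane together, ranked 145th of all 22154 genes. It stood 2.25 times above Cnp (91.1 FPKM), and their ranges did not overlap. Cnp was followed by Mobp (67.0 FPKM) and Cldn11 (57.8 FPKM), in that order in 12 of 12 libraries although the ranges of neighbours overlapped. Mal (46.6 FPKM) and Mag (46.6 FPKM) could not be ordered, as Mal was the higher in 8 of 12 libraries and their means differed by less than the spread within groups. Mog (23.4 FPKM) lay below them without overlap, Ermn (17.2 FPKM) came next, with Mog above it in 12 of 12 libraries, and Opalin stood apart at the bottom. This order held while each gene moved by 1.27 times (Mal) to 2.68 times (Opalin) between its lowest and highest library. The spread within groups was smallest for Cldn11, at a coefficient of variation of 6.77%, and largest for Opalin, at 26.7%.

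**Figure D1:**
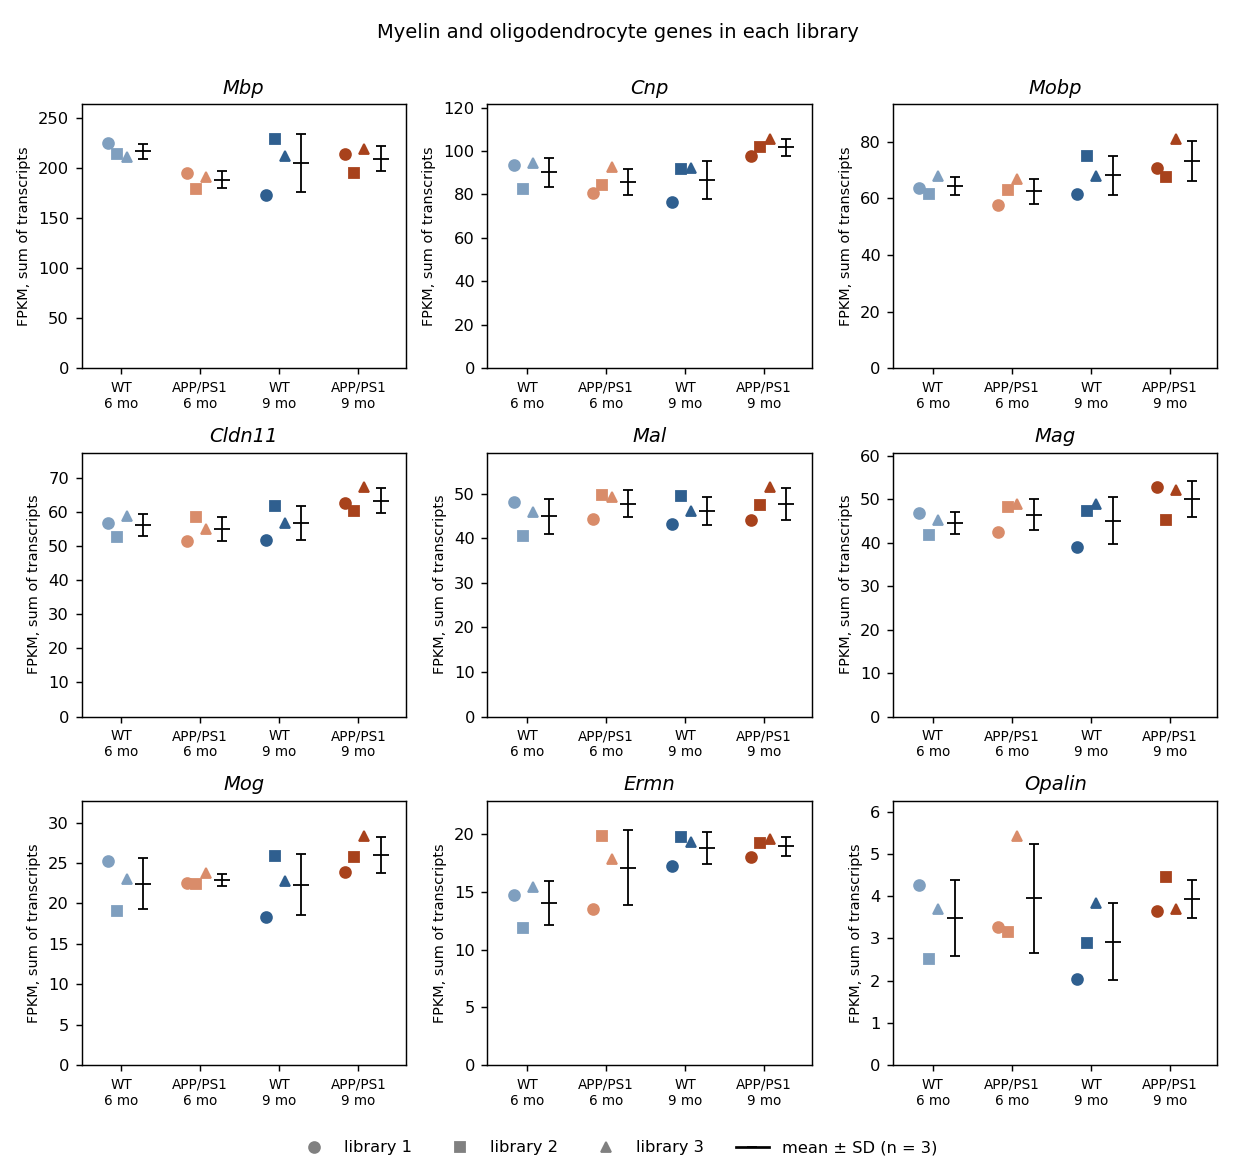
Level of each of the 9 genes in every library. Each panel has the 4 groups on the x axis and the summed FPKM of the gene on the y axis from 0, with 1 point per library, its shape giving the library number, and the group mean ± SD (n = 3) in black beside it. In Cnp the 3 APP/PS1 libraries of 9 months, at 97.5 to 106 FPKM, lie above all others, and in Mbp the 3 APP/PS1 libraries of 6 months, at 179 to 195 FPKM, lie below those of WT at that age.

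Among the proteins that compact the membrane, Mbp was lower in APP/PS1 than in WT at 6 months in every library, although the difference did not pass the test over all genes. Its levels were 225, 214 and 211 FPKM in WT and 195, 179 and 191 FPKM in APP/PS1 at 6 months. At 9 months they were 173, 229 and 212 FPKM in WT and 214, 195 and 218.7 FPKM in APP/PS1. The groups of 6 months did not overlap, those of 9 months did, and WT 1 of 9 months held the lowest level of the 12. The log2 difference at 6 months was -0.20 (SE 0.09, 95% interval -0.40 to -0.01), with an unadjusted p of 0.0435 and an adjusted p of 0.413 by limma. At 9 months it was 0.04 (SE 0.09). In a whole-tissue sample, fewer cells and less RNA per cell cannot be told apart. At 6 months the summed striatal markers did not overlap between genotypes, while those of the choroid plexus did overlap, and with both lists as covariates the difference in Mbp was -0.26. As the striatal markers differ with genotype at this age, that fit cannot separate them from genotype, and a part of tissue composition was not tested.

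Mobp, another small basic protein of compact myelin, read 63.6, 61.7 and 67.9 FPKM in WT and 57.7, 62.9 and 66.7 FPKM in APP/PS1 at 6 months. At 9 months its levels were 61.3, 74.9 and 68.0 FPKM in WT and 70.8, 67.6 and 81.0 FPKM in APP/PS1. The genotypes overlapped at both ages, with log2 differences of -0.05 (SE 0.09) and 0.10 (SE 0.09). Within APP/PS1, the 3 libraries of 9 months all lay above those of 6 months, by a log2 difference of 0.23 (SE 0.09, unadjusted p = 0.0233, adjusted p = 0.304 by limma), and by 0.15 without APP/PS1 3 of 9 months, the highest library for this gene.

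Mal, a proteolipid of membrane sorting, was the steadiest of the 9 between its extremes. It stood at 48.2, 40.6 and 46.0 FPKM in WT and 44.2, 49.6 and 49.3 FPKM in APP/PS1 at 6 months, and at 43.2, 49.4 and 46.0 FPKM and 44.2, 47.5 and 51.4 FPKM at 9 months. All groups overlapped. Its 95% intervals ran from -0.09 to 0.26 at 6 months and from -0.13 to 0.22 at 9 months on the log2 scale.

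Cnp, the phosphodiesterase that lines the cytoplasm-filled edges of the sheath, was higher in APP/PS1 at 9 months than in any other library of the set, and again the difference did not pass the adjusted test. Its levels at 6 months were 93.6, 82.3 and 94.5 FPKM in WT and 80.8, 84.3 and 92.5 FPKM in APP/PS1. By 9 months they were 76.5, 91.5 and 92.2 FPKM in WT and 97.5, 102 and 106 FPKM in APP/PS1. Genotypes overlapped at 6 months (log2 difference -0.07, SE 0.08) and did not at 9 months (0.23, SE 0.08, 95% interval 0.05 to 0.41, unadjusted p = 0.0156, adjusted p = 0.381 by limma). WT 1 of 9 months was the lowest of all 12, and without it the difference at 9 months was 0.14. The genotype difference at 9 months exceeded that at 6 months by 0.30 (SE 0.11, unadjusted p = 0.0234, adjusted p = 0.365 by limma). From 6 to 9 months in APP/PS1, Cnp stood 0.24 higher (SE 0.08, unadjusted p = 0.0120, adjusted p = 0.247 by limma), without overlap.

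Mag, an adhesion molecule on the inner layer facing the axon, had 46.9, 41.8 and 45.1 FPKM in WT and 42.4, 48.2 and 48.8 FPKM in APP/PS1 at 6 months. The libraries of 9 months gave 38.9, 47.3 and 49.0 FPKM in WT and 52.8, 45.3 and 52.1 FPKM in APP/PS1. Every pair of groups overlapped, and the log2 differences between genotypes were 0.06 (SE 0.09) and 0.15 (SE 0.09). Mog, an immunoglobulin-like protein of the outermost layer, read 25.2, 19.0 and 23.1 FPKM in WT and 22.5, 22.4 and 23.8 FPKM in APP/PS1 at 6 months. Its 9-month levels were 18.3, 25.8 and 22.8 FPKM in WT and 23.9, 25.8 and 28.4 FPKM in APP/PS1. The genotypes overlapped at both ages (log2 differences 0.04 and 0.23, SE 0.13 for each), and without WT 1 of 9 months, the lowest library for Mog and for Mag, the differences at 9 months were 0.10 for Mog and 0.05 for Mag.

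Cldn11, the claudin of the tight junctions that seal the myelin spiral, gave 56.9, 52.8 and 58.9 FPKM in WT and 51.4, 58.6 and 55.0 FPKM in APP/PS1 at 6 months. Levels at 9 months were 51.7, 61.8 and 56.7 FPKM in WT and 62.5, 60.2 and 67.2 FPKM in APP/PS1. At 9 months the genotypes overlapped only through WT 2, and the log2 difference was 0.16 (SE 0.07, 95% interval -0.0011 to 0.32), or 0.09 without WT 1 of 9 months. Within APP/PS1 the 9-month libraries all exceeded those of 6 months, by 0.20 (SE 0.07, unadjusted p = 0.0180, adjusted p = 0.281 by limma).

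Ermn, a cytoskeletal protein of late-stage oligodendrocytes, was higher at 9 than at 6 months in every WT library, without passing the adjusted test. It stood at 14.8, 11.9 and 15.4 FPKM at 6 months and at 17.2, 19.8 and 19.3 FPKM at 9 months in WT. In APP/PS1 it was 13.5, 19.9 and 17.9 FPKM at 6 months and 18.1, 19.2 and 19.6 FPKM at 9 months. The WT ages did not overlap, with a log2 difference of 0.42 (SE 0.13, 95% interval 0.13 to 0.71, unadjusted p = 0.00839, adjusted p = 0.332 by limma), while the APP/PS1 ages overlapped (0.17, SE 0.13). The age difference in APP/PS1 less that in WT was -0.26 (SE 0.19, adjusted p = 0.641 by limma), so the genotypes were not shown to differ in it. Between genotypes Ermn overlapped at both ages. Its log2 difference at 6 months was 0.27 (SE 0.13, 95% interval -0.02 to 0.56, unadjusted p = 0.0636, adjusted p = 0.457 by limma). At 9 months it was 0.02 (SE 0.13). The WT libraries of 6 months enter both the 6-month difference and the age difference in WT. Opalin, a transmembrane protein of mature oligodendrocytes, was the lowest and most scattered, at 4.27, 2.50 and 3.69 FPKM in WT and 3.26, 3.14 and 5.43 FPKM in APP/PS1 at 6 months. Its levels at 9 months were 2.02, 2.89 and 3.85 FPKM in WT and 3.66, 4.45 and 3.70 FPKM in APP/PS1. Its 95% interval at 9 months, -0.12 to 1.00, was the widest among the 9 genes, as was its interval at 6 months, -0.41 to 0.71.

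Counted together, all 9 genes passed the filter of a mean of 0.5 FPKM, and limma called 0 of them at an adjusted p under 0.05 in APP/PS1 against WT at 6 months, where it called 0.0441% of 13593 genes. It also called 0 of 9 at 9 months, against 0.0956% of all genes. Between ages it called 0 of 9 in WT (0.0441% of all genes) and 0 of 9 in APP/PS1 (0% of all genes), and 0 of 9 had a genotype difference that itself differed between ages (0.00736% of all genes). An unadjusted p under 0.05 was reached by 1 of 9 at 6 months (Mbp, with 11.7% of all genes), 1 of 9 at 9 months (Cnp, 9.73%), 1 of 9 between ages in WT (Ermn, 10.3%), 3 of 9 between ages in APP/PS1 (Cnp, Cldn11 and Mobp, 13.1%) and 1 of 9 for the difference between the genotype effects (Cnp, 11.3%). Groups did not overlap for 1 of 9, lower, at 6 months (9.14% of all genes), for 1 of 9, higher, at 9 months (9.28%), for 1 of 9, higher, between ages in WT (8.55%) and for 5 of 9, higher, between ages in APP/PS1 (Mbp, Mog, Mobp, Cnp and Cldn11, against 10.8%). For Mbp the gap between ages was narrow, as both APP/PS1 1 of 6 months and APP/PS1 2 of 9 months round to 195 FPKM, and for Mog it lay between 23.8 and 23.9 FPKM. Between ages in APP/PS1 both of these shares were more than those of all genes, while the 9 genes come from the same cells and libraries, so the counts are not 9 separate observations.

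The signs of the differences were mixed at 6 months and alike at 9 months. Of the 9 genes, 5 were higher and 4 lower in APP/PS1 at 6 months, with a median log2 difference of 0.04, beside -0.01 over all genes tested. At 9 months 9 of 9 were higher, with a median of 0.15, beside 0.01 over all genes. Without WT 1 of 9 months that median was 0.05 and 6 of 9 were higher, with Mbp at -0.08, Ermn at -0.05 and Mal at -0.0020, while Mobp moved from 0.10 to 0.03 and Opalin from 0.44 to 0.22. Between ages the median was 0.01 in WT and 0.17 in APP/PS1, where 8 of 9 were higher, beside -0.0035 and 0.02 over all genes. The genotype and age comparisons use each group more than once, so their values are not independent of each other. None of the 9 genes was shown to differ between genotypes, and the intervals in the plot of differences give the sizes that remain possible.

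**Figure D2:**
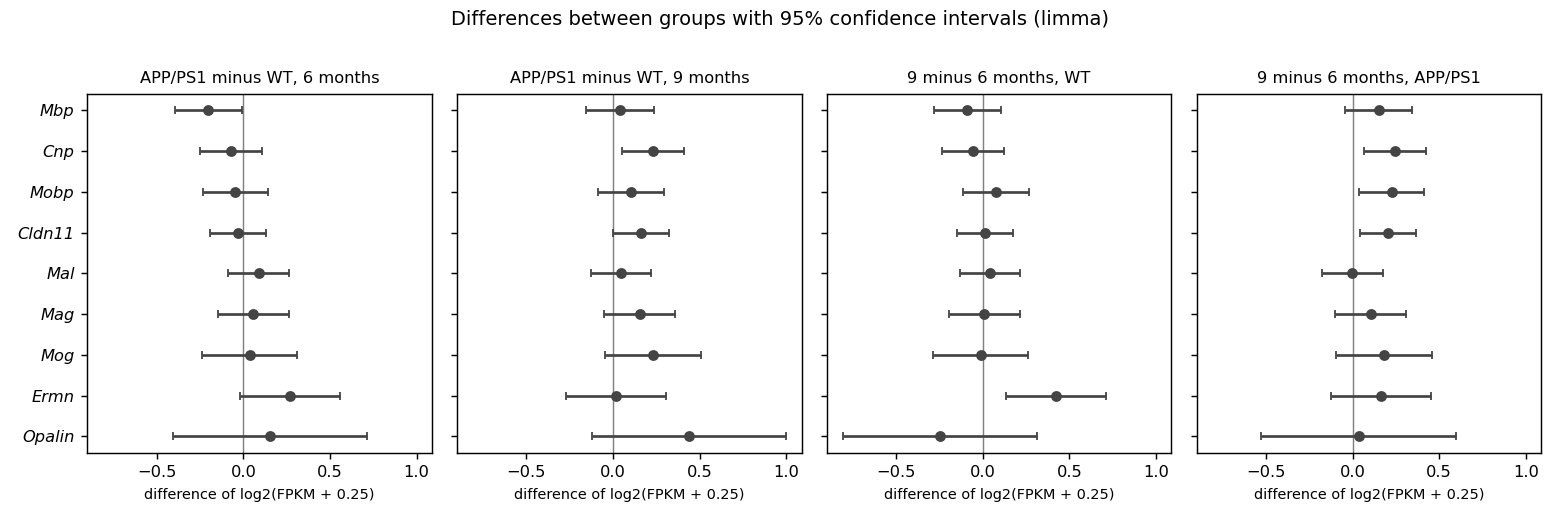
Log2 difference of each gene in the 4 comparisons between groups, with 95% confidence intervals from limma. The x axis is the difference of log2(FPKM + 0.25) and 0 is no difference. The interval of Mbp lies below 0 at 6 months, that of Cnp above 0 at 9 months, that of Ermn above 0 between ages in WT, and those of Mobp, Cnp and Cldn11 above 0 between ages in APP/PS1, while no adjusted p was under 0.05.

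Across libraries the 9 genes moved together, also within groups. Over the 12 libraries, 35 of 36 pairs had a positive Pearson's r on the log2 scale, with a median of 0.62 and a range from -0.12 (Mbp with Ermn) to 0.91 (Mobp with Cldn11). With the group means taken out, 36 of 36 were positive and the median was 0.68. A two-sided permutation test with 100000 permutations gave an adjusted p under 0.05, over the 36 pairs, for 14 pairs. The share of all gene pairs that reach this was not counted. Mobp and Cldn11 had r = 0.91 (permutation p = 6.0e-05, adjusted p = 0.00216) and Spearman's rho = 0.87 (permutation p = 0.00049, adjusted p = 0.0176), and r was 0.80 without the 2 libraries farthest from the median of Mobp. Mog and Cnp had r = 0.87 (permutation p = 0.00023, adjusted p = 0.00414) and rho = 0.80 (permutation p = 0.00286, adjusted p = 0.0265), and r was 0.77 without the 2 farthest. Others of the 14 pairs were less steady. Without the 2 libraries farthest from the median of Mog, r fell from 0.75 to 0.36 for Mog and Mag. For Mog and Opalin it fell from 0.67 to 0.11. The adjusted permutation p of rho was 0.124 for Mog with Mag and 0.128 for Mog with Opalin. All values of a library share its sample and its scaling, so these r describe the libraries and show no link from gene to gene.

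Some libraries stood apart for most of the genes. WT 1 of 9 months held the lowest of the 12 levels for 5 genes and lay above a gene's own mean for 1 of 9, and APP/PS1 3 of 9 months held the highest for 5 genes and lay above the mean for 9 of 9. The 9 genes lay on average 0.24 below their own log2 means in the former and 0.19 above in the latter. WT 2 of 6 months (0.21 below) and APP/PS1 1 of 6 months (0.14 below) were the next lowest. Leaving out any 1 library kept the median r between 0.56 and 0.67, and without both extremes of 9 months it was 0.52. WT of 9 months therefore held both a library far below and others above the mean. Because the fit uses a spread per gene that all groups share, the spread within WT of 9 months entered the intervals of every comparison.

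**Figure D3:**
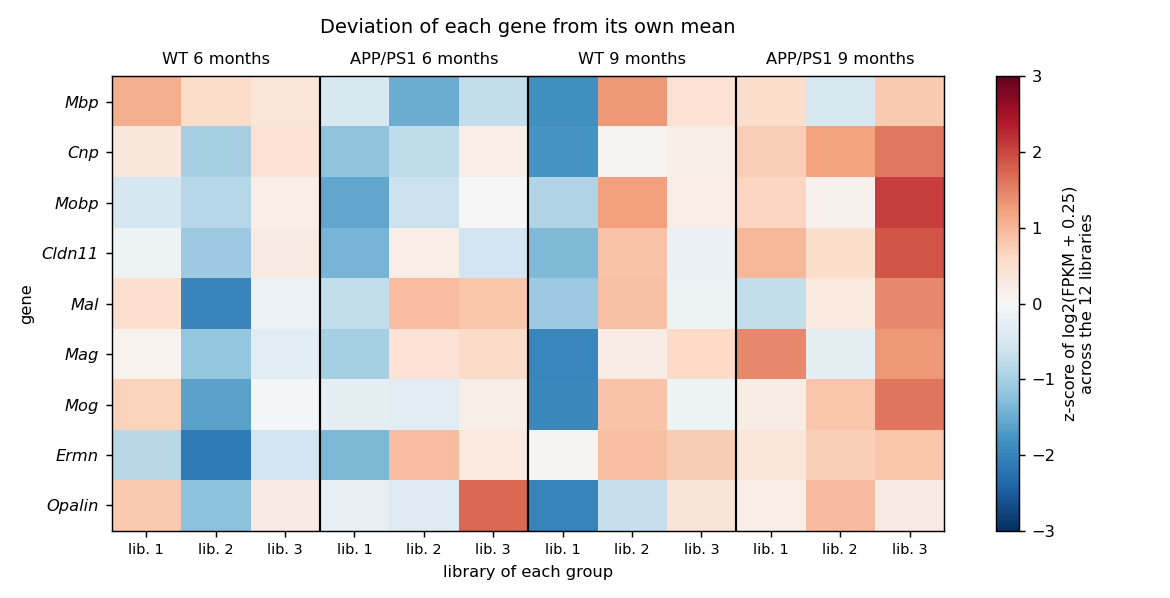
Deviation of each gene from its own mean over the 12 libraries, as a z-score of log2(FPKM + 0.25), with genes in rows from the highest to the lowest level and libraries in columns by group. Library 1 of WT at 9 months lies below the mean for all but Ermn, and library 3 of APP/PS1 at 9 months lies above it for all 9.

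Mbp and Opalin followed this pattern least. The median r of Mbp with the other 8 genes was 0.46, against 0.74 for Mog and 0.73 for Cnp, and only Opalin (0.44) had a lower median. Measured as its log2 deviation less the mean deviation of the other 8 genes, Mbp was 0.19 and 0.20 lower in APP/PS1 2 and 3 of 6 months and 0.09 higher in APP/PS1 1. In WT of 6 months the same measure was 0.11, 0.32 and 0.05, all above 0. At 9 months it was 0.00, 0.10 and 0.01 in WT and -0.01, -0.17 and -0.10 in APP/PS1.

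The 8 genes whose levels over the 12 libraries were most like the mean z-score of the 9 genes, out of 12589 others with a mean of at least 1 FPKM, included Fubp3 (r = 0.95), Gjc3 (0.91), Fahd2a (0.90), Tmem88b (0.90), Hsf4 (0.89), S1pr5 (0.89) and Nkx6-2 (0.88). Gjc3 encodes a gap junction protein of oligodendrocytes, and Nkx6-2 a transcription factor of that lineage. By lists, the median r with the 9 genes was 0.66 for 19 other myelin protein genes, 0.57 for 11 genes of oligodendrocyte metabolism, 0.51 for 10 transcription factors of the lineage and 0.49 for 10 genes of lipid metabolism. It was -0.18 for 8 genes of oligodendrocyte precursors, 0.06 for 12 neuronal genes, 0.32 for 8 of astrocytes and 0.43 for 9 of microglia, beside 0.01 over all genes compared. It was 0.22 for 7 endothelial genes, -0.04 for the choroid plexus list and -0.03 for that of striatal neurons.

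**Figure D4:**
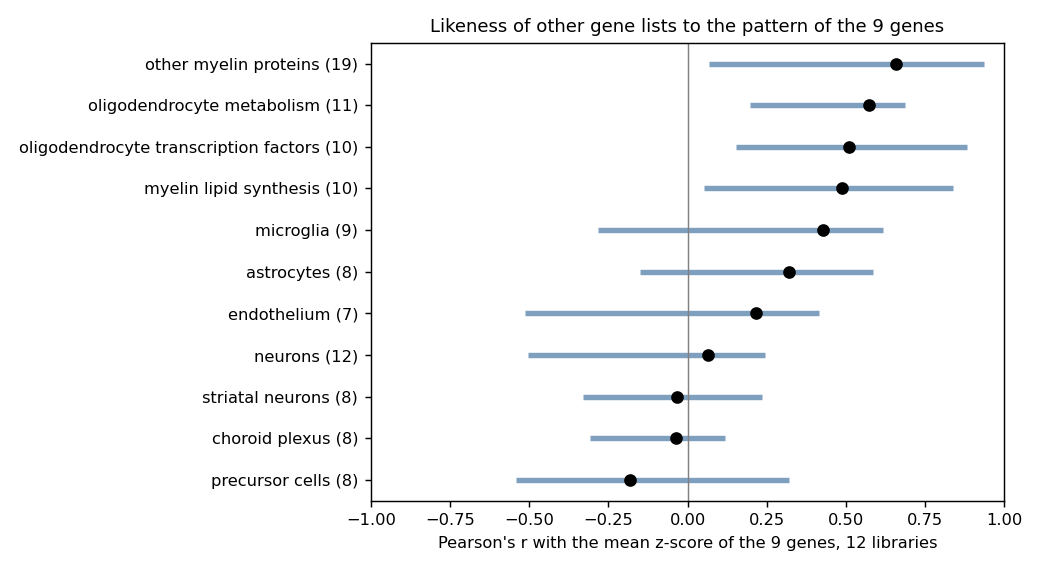
Pearson's r, over the 12 libraries, of the genes of each list with the mean z-score of the 9 genes. Points give the list's median, bars its lowest and highest gene, and the number of genes is in parentheses. The myelin protein, metabolism, transcription factor and lipid lists have medians of 0.49 to 0.66, and the precursor list has a median of -0.18. The medians of microglia (0.43), astrocytes (0.32) and endothelium (0.22) lie between these, and the lowest gene of the lipid list is at 0.05.

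Of 20 other myelin protein genes, 10 were higher and 10 lower in APP/PS1 at 6 months (median log2 difference 0.00093), and 15 were higher and 5 lower at 9 months (median 0.12). Over all genes tested, 46.1% were higher at 6 months and 53.4% at 9 months. Limma called 0 of 20 in either comparison, and an unadjusted p under 0.05 was reached by 1 and by 2 of them, beside 11.7% and 9.73% of all genes. At 6 months this was Cntn2, an adhesion protein near the node, at 26.6 ± 1.1 FPKM (SD, n = 3) in WT and 23.8 ± 1.1 FPKM in APP/PS1 (adjusted p = 0.289 by limma). At 9 months it was the tetraspanin Cd9, at 18.9 ± 3.0 FPKM and 24.7 ± 1.7 FPKM (adjusted p = 0.273), and the proteolipid Pllp, at 11.1 ± 2.2 FPKM and 14.5 ± 1.3 FPKM (adjusted p = 0.392), both without overlap. Between ages in APP/PS1, 16 of 20 were higher (median 0.20), beside 55.7% of all genes, and 4 had an unadjusted p under 0.05, beside 13.1% of all genes, Cntn2 among them at 23.8 ± 1.1 FPKM and 28.05 ± 0.43 FPKM (adjusted p = 0.137 by limma). In WT 12 of 20 were higher with age (median 0.04), beside 48.6% of all genes, and 0 reached an unadjusted p of 0.05, beside 10.3%.

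The shares of all genes just given are the background for the other lists too. Genes of lipid metabolism in oligodendrocytes, which include Galc, an enzyme that breaks down a myelin lipid, were higher in APP/PS1 for 8 of 10 at both ages (medians 0.08 and 0.14), with 0 called by limma and 1 and 0 at an unadjusted p under 0.05. Genes of oligodendrocyte metabolism were higher for 8 of 11 and 9 of 11 (medians 0.10 and 0.11), with 0 called and 1 and 1 at an unadjusted p under 0.05. That gene was Trf at both ages, the iron carrier transferrin, at 74.3 ± 8.8 FPKM in WT and 95.8 ± 11.0 FPKM in APP/PS1 at 6 months (adjusted p = 0.369 by limma) and at 74.5 ± 4.4 FPKM and 96.1 ± 21.2 FPKM at 9 months (adjusted p = 0.471). Of 11 transcription factors of the lineage, 5 were higher at 6 months and 10 at 9 months (medians -0.01 and 0.07), with 0 called and 0 at an unadjusted p under 0.05. Myrf, which drives myelin genes in maturing cells, stood at 11.5 ± 1.6 FPKM in WT and 12.6 ± 1.2 FPKM in APP/PS1 at 9 months.

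Of 9 precursor genes tested, 6 were lower at 9 than at 6 months in WT and 6 in APP/PS1 (medians -0.13 and -0.18), with 0 called by limma and 2 and 2 at an unadjusted p under 0.05. Gpr17, a receptor of cells on the way to maturing, stood at 9.37 ± 1.00 FPKM at 6 months and 7.18 ± 0.38 FPKM at 9 months in WT (adjusted p = 0.299 by limma), and at 8.40 ± 0.94 FPKM and 6.76 ± 0.89 FPKM in APP/PS1 (adjusted p = 0.270). Between genotypes their medians were -0.0034 at 6 months and -0.04 at 9 months, with 0 of 9 called and 0 at an unadjusted p under 0.05.

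Among the genes of all lists, 1 passed the same test, in astrocytes. Gfap, the filament protein of reactive astrocytes, was 63.2 ± 11.6 FPKM in WT and 131.2 ± 18.3 FPKM in APP/PS1 at 9 months, without overlap (log2 difference 1.06, SE 0.14, adjusted p = 0.0138 by limma). The 9 microglial genes summed to 148.7 to 173.7 FPKM in WT and 195.4 to 216.1 FPKM in APP/PS1 at 9 months, 9 of 9 were higher and 7 had an unadjusted p under 0.05, while limma called 0. For axonal neurofilament genes, which myelinated axons carry in bulk, the log2 differences between genotypes at 9 months were 0.01 for Nefl, -0.00039 for Nefm and -0.07 for Nefh, and at 6 months 0.05, 0.11 and 0.07. Of these, Nefm at 6 months did not overlap, at 47.4 ± 1.4 FPKM in WT and 51.4 ± 2.9 FPKM in APP/PS1 (adjusted p = 0.447 by limma). The share of all genes that were higher without overlap at 6 months was not counted. The part of astrocytes, microglia and neurons in the values of the 9 genes was not tested.

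The transcript rows behind the sums were less steady than the sums. Of 31 rows, 24 passed the filter and 20 had a mean of at least 1 FPKM, 8 of them from Mbp, which has many spliced forms, and 4 from Mag. Limma called 0 of 24 rows at 6 months (0.0448% of all 22322 rows) and 0 of 24 at 9 months (0.0627%), with 1 and 1 at an unadjusted p under 0.05 (8.66% and 7.02% of all rows). These were the Mbp row ENSMUST00000080658, at 4.97 ± 0.18 FPKM in WT and 3.98 ± 0.55 FPKM in APP/PS1 at 6 months (adjusted p = 0.452 by limma), and the single row of Cnp at 9 months.

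A single row, ENSMUST00000133193, carried 58.6% to 64.3% of the Mbp sum in each library, and it was 139, 131 and 128 FPKM in WT and 124, 105 and 112 FPKM in APP/PS1 at 6 months, without overlap. The share of all transcript rows without overlap was not counted. The other Mbp rows moved in different directions. ENSMUST00000132369 was 23.9, 22.2 and 19.0 FPKM in WT and 16.2, 11.5 and 10.3 FPKM in APP/PS1 at 6 months, and ENSMUST00000047865 was 8.64, 7.45 and 7.04 FPKM in WT and 7.54, 12.6 and 14.4 FPKM in APP/PS1. At 9 months ENSMUST00000132369 was listed at 0 in WT 1 and at 21.2, 14.9, 20.0, 13.0 and 20.7 FPKM in the other 5 libraries. ENSMUST00000114674 was also listed at 0 in WT 1 of 9 months and at 0.64 to 1.53 FPKM in the other 11. An exact 0 for a form of so abundant a gene can be a failed estimate, and the low Mbp sum of that library contains it. The main row ENSMUST00000133193 was 110 FPKM there, beside 147 and 136 FPKM in WT 2 and 3 of 9 months. What lowered the sum was not tested.

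Mag was split among 3 main rows. ENSMUST00000191081 lay at 11.8 to 21.6 FPKM in 10 libraries and at 2.15 FPKM in WT 2 and 1.88 FPKM in APP/PS1 2 of 9 months. In those same libraries ENSMUST00000188569 was 2.22 and 4.58 FPKM, while it was listed at 0 in the other 10. The Mag sums there, 47.3 and 45.3 FPKM, lay within the range of the remaining libraries. Cnp, Cldn11, Opalin and Ermn have 1 row each, and 98.8% to 100% of Mog came from 1 row, so those sums rest on a single estimate.

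**Figure D5:**
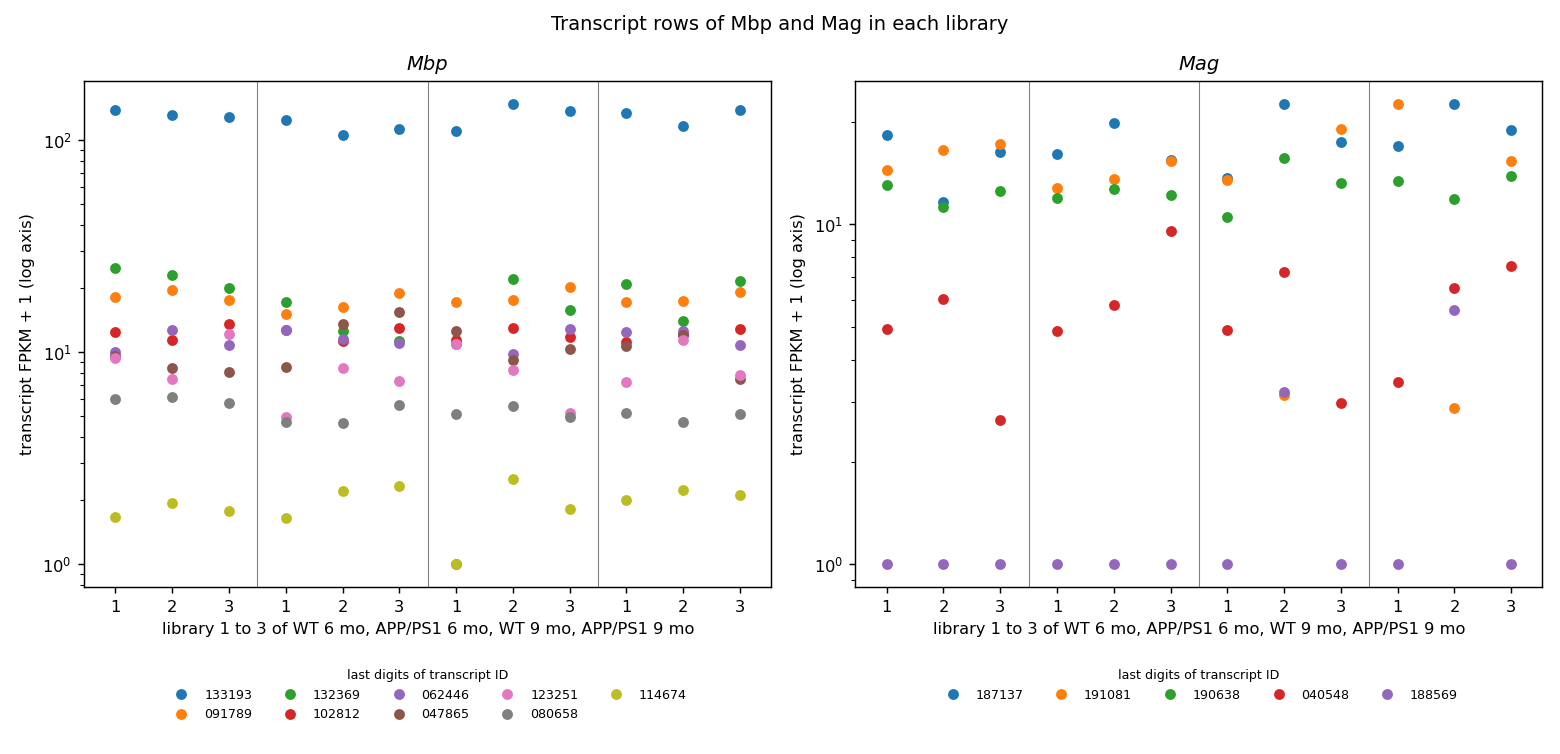
FPKM of the Mbp and Mag transcript rows in each library, on a log axis after adding 1, with libraries 1 to 3 of the 4 groups from left to right and a colour for each row. The Mbp row ENSMUST00000132369 drops to 0 FPKM in library 1 of WT at 9 months, and the Mag row ENSMUST00000191081 falls to 2.15 and 1.88 FPKM where ENSMUST00000188569 appears.

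MicroRNAs of the oligodendrocyte were measured in separate small RNA libraries of the same groups, with 5082755 to 8595108 miRNA reads each. miR-219a and miR-338 are known to help precursors mature by repressing genes that hold them back. The sequences are shown because miR-219a-5p and miR-219b-3p can come from opposite strands of one site, with bases 2 to 8, the seed that pairs with targets, in capitals and taken from RefSeq, build GRCm38.p6.
miR-219a-5p: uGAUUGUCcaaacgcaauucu
miR-219b-3p: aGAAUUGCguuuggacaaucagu
miR-219b-5p: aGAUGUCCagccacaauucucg
miR-219a-1-3p: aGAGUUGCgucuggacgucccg
miR-338-3p: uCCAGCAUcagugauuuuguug
miR-338-5p: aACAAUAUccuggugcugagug
None of these 6 share a seed. All 21 bases of miR-219a-5p are the reverse complement of bases within miR-219b-3p, from opposite strands at chr2:29845689-29845709. RefSeq also lists miR-219a-5p at chr17:34025052-34025072, from the gene that gives miR-219a-1-3p. Their reads ran from 36 to 85 and from 33 to 85, were equal in 4 of 12 libraries and differed by at most 4 reads, so these counts are uncertain and may be the same reads.

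The most abundant was miR-219a-2-3p, with 7213 to 12772 reads. As CPM, reads scaled to a common library total, it was 1332, 1301 and 1329 in WT and 1339, 1728 and 1419 in APP/PS1 at 6 months. These groups did not overlap, though only by 1332 against 1339 CPM, and the share of all miRNAs without overlap was not counted. By 9 months miR-219a-2-3p was 1373, 1691 and 1694 CPM in WT and 1611, 1531 and 1708 CPM in APP/PS1, and the groups overlapped. The edgeR log2 differences were 0.16 (SE 0.10, adjusted p = 0.753) and 0.05 (SE 0.10, adjusted p = 0.960). miR-338-3p stood at 270.9 ± 26.6 CPM (SD, n = 3) in WT and 237.0 ± 46.8 CPM in APP/PS1 at 6 months, and at 328.1 ± 40.0 CPM and 282.2 ± 13.5 CPM at 9 months.

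Of the 7 miRNAs, edgeR called 0 at 6 months and 0 at 9 months, as it called 0% of 560 miRNAs at each age, with 0 of 7 and 1 of 7 at an unadjusted p under 0.05 (5.71% and 5.36% of all). DESeq2 called 0 of 7 as well. The single miRNA was miR-219a-1-3p at 9 months, with 10, 16 and 8 reads in WT and 23, 18 and 20 reads in APP/PS1 (log2 difference 0.66, SE 0.27, adjusted p = 0.769 by edgeR), a level at which counting error alone is large.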

How the data were processed

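Of the 36 samples, the 12 long RNA and 12 small RNA libraries were used, 3 for each genotype and age. Circular RNA and long noncoding RNA tables were not used here. Sample titles and characteristics gave the groups. The deposited mRNA table holds FPKM per transcript, and the deposited miRNA table holds whole-number read counts, both made by the authors. Per the labels' protocols, RNA was extracted with Trizol and 1 µg went into an Illumina TruSeq kit. Bowtie 0.12.2 and mm8 stand in the submitters' processing notes without a role. Annotation and counting tool: not given in the sources used here.

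Transcript FPKM were summed per gene. Genes averaging 0.5 FPKM or more across libraries were tested as log2(FPKM + 0.25) with limma 3.58.1 (trend, 4 group means) in R 4.3.3, adjusted by Benjamini-Hochberg over all genes, and called at an adjusted p under 0.05. A log2 change on this scale understates that of low genes. Transcript rows were tested in the same way. miRNA counts were tested with edgeR 4.0.16 (quasi-likelihood F test, TMM, filterByExpr), with DESeq2 1.42.0 as an alternative, and an SE of edgeR is the log2 change over the root of F. miRNA libraries held 5082755 to 8595108 reads, and the depth behind FPKM is not known. The 95% intervals are limma's and cover the spread between libraries. All tests were two-sided. The limma and edgeR fits were also run on simulated data, with the outcome not reported here, so the simulation gives no measure of power for small differences. Correlations are on the log2 scale. Promoter and miRNA sequences were matched by symbol or name to RefSeq tables, with 8 genes (all but Mbp) and 6 of 7 miRNAs used.

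The 9 genes and all lists were chosen with earlier results of these data known. Text names the 9 genes, list genes with an adjusted p under 0.05 or among the 3 smallest p of a list in a comparison, the neurofilament genes, the 8 genes most like the 9 (1 is not reported here), and rows of at least 1 FPKM. The rows of Mbp and Mag listed at 0 in some libraries and below that mean were named after their values were seen. App, Prx and Myrf were named for their roles, outside that rule. Alternatives were other pseudocounts, filters and scalings, a fit without trend, the replicate block, striatal and choroid plexus covariates, the 6 libraries of a comparison alone, and each library left out.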

Additional observations from a re-analysis of the deposited data

How the results depend on the processing

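Limma called 0 of the 9 genes in each of the 5 comparisons under all settings tried. The lowest adjusted p of any of the 9 under any setting was 0.143 (Ermn at 6 months without APP/PS1 1). The replicate block also called 0 of the 9. Deviations of same-numbered libraries correlated between -0.12 and 0.13, which cannot tell whether the same library number pairs samples. Called transcript rows and miRNAs stayed at 0.

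Small differences changed sign in places, and the cause was not tested. With striatal and choroid plexus covariates the log2 difference was -0.091 for Mag at 6 months, -0.023 for Ermn and -0.034 for Mal at 9 months, 0.22 for Mog, -0.16 for Mag and -0.00996 for Mobp between ages in WT, and -0.11 for Mog as the difference of the genotype effect. With a common FPKM sum it was -0.00548 for Mag and -0.00288 for Cldn11 between ages in WT. Leaving out a library moved APP/PS1 against WT at 6 months over -0.0759 to 0.125 for Mog, -0.0956 to 0.00899 for Mobp, -0.0776 to 0.0159 for Cldn11 and -0.0864 to 0.306 for Opalin. At 9 months it moved Mbp over -0.0764 to 0.125, Ermn over -0.0452 to 0.0538 and Mal over -0.0099 to 0.0991. Between ages in WT it moved Mbp over -0.176 to 0.0262, Mog over -0.126 to 0.122, Mag over -0.0541 to 0.111, Cnp over -0.122 to 0.0297, Cldn11 over -0.0509 to 0.0766 and Mal over -0.0296 to 0.0937. Between ages in APP/PS1 it moved Opalin over -0.0978 to 0.275 and Mal over -0.0565 to 0.0526, and for the difference of the genotype effect Mag over -0.00516 to 0.166 and Mal over -0.0978 to 0.0287. With each library left out, the median difference of the 9 genes at 9 months ran from 0.05 (without WT 1) to 0.20 (without APP/PS1 2), and that of the difference between the genotype effects from 0.07 (without WT 1 of 9 months) to 0.25. The median pairwise r of the genes, an alternative chosen after seeing the data, ran from 0.561 to 0.670. Depth is not known for long RNA, and 3 libraries a group limit all intervals.

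The number of all genes called moved by more than 1.5 times under some settings: at 9 months from 13 to 6 with no filter on low values, 8 without the trend and 3 with the covariates, at 6 months from 6 to 3 with the covariates, and between ages in WT from 6 to 0 with no filter, with the replicate block or with the covariates. Between ages in APP/PS1 it moved from 0 to 3 with a pseudocount of 1 FPKM and 1 with no filter, and for the difference of the genotype effect from 1 to 0 with no filter or the covariates. With each library left out, the counts ran from 4 to 17 at 6 months, 5 to 14 at 9 months, 0 to 13 between ages in WT, 0 to 5 in APP/PS1 and 0 to 4 for the difference.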

Other observations

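Bcas1, a gene of newly myelinating cells that is among the 20 other myelin protein genes, stood at a high level in some libraries of a group and at a low level in others. It stood at 61.4 FPKM in APP/PS1 3 of 6 months, 58.9 FPKM in APP/PS1 1 and 57.5 FPKM in APP/PS1 3 of 9 months, and at 24.6 to 33.5 FPKM in the other 9 libraries. The 3 high libraries are all APP/PS1, and the other 3 APP/PS1 libraries (27.3, 28.9 and 27.6 FPKM) lay with WT. The row ENSMUST00000154650 was at 54.5 to 59.2 FPKM in the high libraries and at 23.2 to 30.4 FPKM in the other 9. Bcas1 was named here after its values were seen.

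Enpp2, which makes a lipid signal and is made by oligodendrocytes and by the choroid plexus alike, ranged from 51.5 FPKM in WT 1 of 6 months to 124.7 FPKM in WT 3 of 9 months, while the choroid plexus genes summed to between 6.29 FPKM and 351.4 FPKM.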
